A study of Mus musculus with 15 samples.

Results

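The genes described here encode 37 enzymes and carriers that feed and run the tricarboxylic acid (TCA) cycle and mitochondrial fatty acid oxidation, followed in C2C12 myotubes treated with Jakyak-gamcho-tang (JGT). They were taken by symbol from a table of 42807 gene symbols. Of the 37, 19 belong to the TCA cycle and the entry of pyruvate and 18 to fatty acid oxidation. All 37 passed the filter on low counts that left 14461 genes for testing.

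Pyruvate dehydrogenase turns pyruvate into acetyl-CoA, and the TCA cycle oxidises acetyl-CoA in the mitochondrial matrix, passing electrons to the respiratory chain. Long-chain fatty acids reach the matrix through the carnitine shuttle and are shortened there by a repeating series of dehydrogenation, hydration, dehydrogenation and thiolysis, each round of which releases acetyl-CoA. Muscle fibres use both routes, and carnitine palmitoyltransferase at the outer membrane is the step that malonyl-CoA restrains.

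C2C12 cells are mouse myoblasts, kept as a line, that fuse to myotubes when serum is lowered. The myotubes had differentiated for 6 days and were then kept for 24 h in the presence of JGT at 20, 100 or 500 µg/mL, with vehicle (0.1% DMSO), or non-treated, with 3 libraries in each of the 5 groups. JGT is a lyophilised hot-water extract of equal weights of peony root and licorice root, dissolved in phosphate-buffered saline containing 2% DMSO, and 500 µg/mL was the dose calculated to leave 80% of the myotubes viable. The labels do not state the DMSO that reached the cells at each JGT dose, so a difference in DMSO and one in JGT cannot be told apart between doses or between a dose and vehicle. All libraries came from 1 cell line, the labels do not say whether they came from separate cultures, and the p-values therefore measure the spread between these libraries. The titles of all libraries, controls included, begin with Batch1. The sample codes of the 6 control libraries nevertheless follow another scheme than those of the 9 JGT libraries. Any difference that goes with the codes and the effect of JGT therefore cannot be told apart in comparisons with vehicle, whereas JGT 500 against JGT 20 stays within 1 scheme.

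Totals ran from 26012826 to 36854201 counts per library. Levels are given as CPM, the TMM-scaled share of a library's counts, and differences as log2 fold changes with a standard error (SE) derived from the fit. That SE is the absolute log2 fold change divided by the square root of the quasi-likelihood F statistic. A gene is called higher or lower, and is said to have risen or fallen, when its Benjamini-Hochberg adjusted p in edgeR's quasi-likelihood test, over all 14461 genes, was below 0.05. The 10 myotube markers were detected in every group and their summed level was 14955 to 16073 CPM in JGT 500 libraries, against 15180 to 16086 CPM in vehicle libraries. Of the 10, Myog (19.5%), Des (21.9%) and Tnni2 (23.8%) rose at 500 µg/mL against vehicle, and the muscle creatine kinase Ckm fell by 28.1%, Myh3 by 11.6% and myoglobin (Mb) by 11.5%. The summed level of 6 markers of myoblasts and reserve cells was 285 to 304 CPM in JGT 500 libraries and 409 to 418 CPM in vehicle libraries. The proliferation genes Mki67 (42.1 CPM on average in JGT 500 libraries, against 113 CPM with vehicle) and Top2a (35.3 CPM, against 75.0 CPM) made up most of that gap, Pax7 and Cdkn1c also fell, and Myod1 and Myf5 were not called. The summed level of 7 adipocyte markers was 104 to 115 CPM in JGT 500 libraries and 48.3 to 49.9 CPM in vehicle libraries, with the defining genes Adipoq, Plin1 and Cidec at 0 in all JGT 500 libraries. Lipoprotein lipase (Lpl), which muscle also expresses, made up 81.1, 76.1 and 72.1 CPM of it in JGT 500 libraries and 27.4, 26.6 and 27.0 CPM in vehicle libraries, and Cebpa (46.0%) and Pparg (20.7%) also rose. The summed level of 4 fibroblast markers was 1069 to 1314 CPM in JGT 500 libraries and 1540 to 1582 CPM in vehicle libraries. Among them the collagen gene Col1a1, which made up most of the sum, fell by 27.1% and Pdgfra rose by 63.7%, and Dcn and Lum were not called. The macrophage and endothelial markers summed to at most 1.66 and 0.545 CPM in any library. The part of these shifts in the results below was not tested. In bulk RNA, a changed share of cells of 1 type and a changed amount of RNA per cell cannot be told apart. JGT 500 replicate 2 stood apart from replicates 1 and 3, with a mean chi-square per gene of 21.2 and 34.8, against 8.26 between replicates 1 and 3 and 2.00 to 4.05 between vehicle libraries. Main counts of the 37 genes therefore stand below with and without it.

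At 500 µg/mL, 12 of the 37 genes rose and 3 fell against vehicle. The liver-type carnitine palmitoyltransferase Cpt1a rose most, by 64.7%, followed by pyruvate carboxylase (Pcx, 30.7%) and medium-chain acyl-CoA dehydrogenase (Acadm, 29.0%). All 4 acyl-CoA dehydrogenases rose, whereas isocitrate dehydrogenase subunit Idh3a, electron transfer flavoprotein subunit Etfb and malate dehydrogenase Mdh2 fell. The share called must be read against all tested genes, of which 33.3% were called at this dose, 16.5% higher and 16.8% lower. The members' median log2 fold change was 0.04, and that of all tested genes 0.01. By function, 8 genes of fatty acid oxidation rose and 1 fell of 18, and 4 genes of the TCA cycle and pyruvate entry rose and 2 fell of 19. Without JGT 500 replicate 2 these counts were 8 higher and 3 lower for fatty acid oxidation, and 5 higher and 4 lower for the cycle and pyruvate entry. Without replicate 1 they were 7 and 0 for fatty acid oxidation and 2 and 1 for the cycle and pyruvate entry, and without replicate 3 they were 6 and 0, and 2 and 1. The calls among all tested genes shifted as well, from 3704 to 6323 over omissions of 1 library, against 4815 with all libraries. Most changes were small, and 22 of 37 estimates were above 0. The 3 JGT 500 libraries lay above the 3 vehicle libraries for 11 genes, against 19.8% of all genes, and below them for 3, against 20.3% of all genes.

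The count of 3 lower genes was 7 without JGT 500 replicate 2, where Hadh, Hadhb, Idh3b and Idh3g joined the 3. It was 1 without JGT 500 replicate 1 or replicate 3, and also 1 without vehicle replicate 2 or replicate 3. The count of 12 higher genes was 13 without JGT 500 replicate 2, where Pdhb joined, and 8 without JGT 500 replicate 3. Over omissions of 1 library, calls among all tested genes ranged from 3704 to 6323, against 4815 with all libraries. Set against the non-treated libraries in place of vehicle, 7 of the 12 were called higher, and Acadl (adjusted p = 0.0606), Dld (0.339), Etfdh (0.114), Slc25a20 (0.0638) and Sucla2 (0.443) were not, nor was Etfb called lower (0.232), whereas Dlst and Cpt1b were called lower, which made 4 lower genes. With only the JGT 500 and vehicle libraries in the fit, the calls of Dld (0.0617), Etfdh (0.0575), Slc25a20 (0.105), Sucla2 (0.0767), Etfb (0.103) and Mdh2 (0.151) were lost. Cpt1a, Pcx, Acadm, Acadvl, Acads, Ogdh and Idh3a were called under all 15 alternatives tried.

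**Figure D1:**
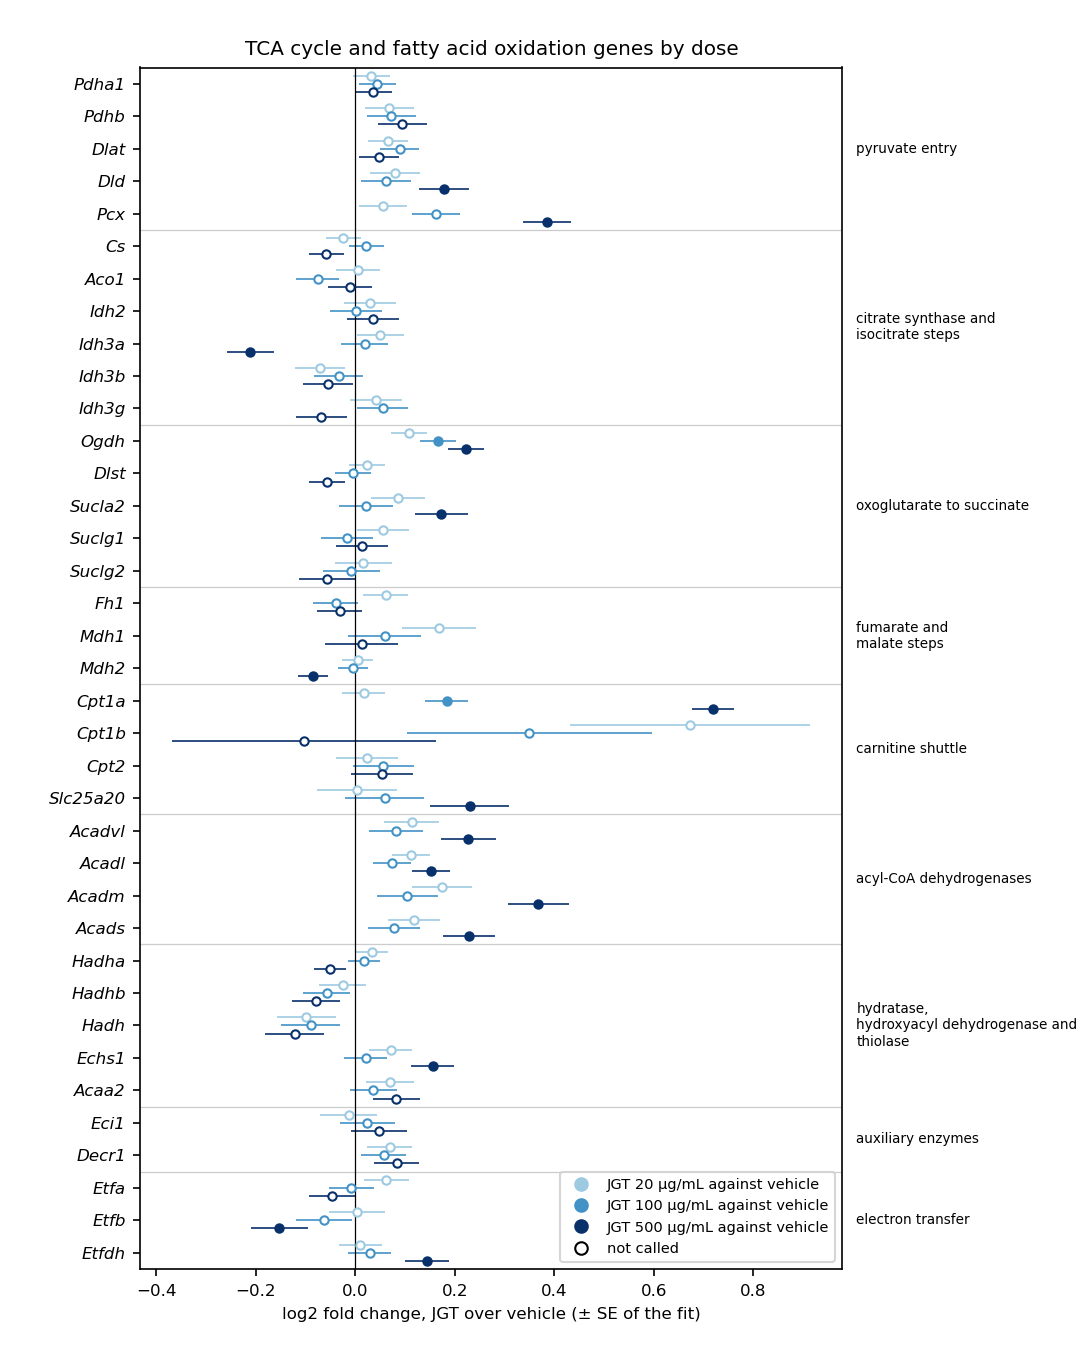
Log2 fold changes over vehicle (x axis, ± SE) for the 37 genes in order of function (y axis) at 20, 100 and 500 µg/mL JGT, 3 libraries per group, with filled points for genes called at an adjusted p below 0.05. No point is filled at 20 µg/mL, 2 are at 100 µg/mL and 15 are at 500 µg/mL, with Cpt1a farthest to the right at 0.72.

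Pyruvate enters mitochondrial metabolism through the pyruvate dehydrogenase complex or through pyruvate carboxylase. Pcx, which carboxylates pyruvate to oxaloacetate, stood at 55.0, 55.9 and 57.2 CPM in JGT 500 libraries, against 43.1, 43.4 and 42.2 CPM in vehicle libraries. The 3 JGT 500 libraries were close together and all lay above the vehicle libraries. The difference was 0.39 ± 0.05 on the log2 scale (SE, adjusted p = 3.06e-06). Among the complex's own genes, only the shared dihydrolipoamide dehydrogenase Dld rose, with 149, 127 and 149 CPM in JGT 500 libraries and 127, 123 and 126 CPM in vehicle libraries. Replicate 2 was the low one among the JGT 500 libraries, just above the highest vehicle library. The Dld difference was 0.18 ± 0.05 (SE, adjusted p = 0.00979), and the call was lost without JGT 500 replicate 1 (adjusted p = 0.0711) or replicate 3 (0.0608). The decarboxylase subunits Pdha1 and Pdhb and the acetyltransferase Dlat gave log2 differences of 0.04, 0.09 and 0.05 and were not called.

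Isocitrate dehydrogenase of the cycle is built from a catalytic subunit (Idh3a) and the subunits Idh3b and Idh3g, and only Idh3a fell. It stood at 62.4, 68.1 and 64.3 CPM in JGT 500 libraries, against 72.9, 78.8 and 73.9 CPM in vehicle libraries. All JGT 500 libraries lay below all vehicle libraries, and replicate 2 was the nearest to them. The difference was −0.21 ± 0.05 (SE, adjusted p = 0.00168), a fall of 13.6%. Idh3b had 76.2, 82.6 and 71.8 CPM in JGT 500 libraries, against 79.8, 81.6 and 78.4 CPM in vehicle libraries. Idh3g had 94.6, 107 and 88.8 CPM in JGT 500 libraries, against 101, 103 and 100 CPM in vehicle libraries. For both, replicate 2 lay above the vehicle libraries and replicates 1 and 3 below them, so that the groups overlapped, and the log2 differences of −0.06 and −0.07 were not called. Whether the change of Idh3a differed from that of its partners was not tested. Citrate synthase Cs (−0.06), the cytosolic aconitase and iron regulator Aco1 (−0.01) and the NADP-dependent mitochondrial isocitrate dehydrogenase Idh2 (0.03) were not called.

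In the oxoglutarate dehydrogenase complex, the decarboxylase Ogdh rose and the succinyltransferase Dlst was not called. Ogdh stood at 270, 251 and 268 CPM in JGT 500 libraries, against 232, 223 and 221 CPM in vehicle libraries, and the groups did not overlap. The difference was 0.22 ± 0.04 (SE, adjusted p = 8.74e-05), and that of Dlst was −0.06. Succinyl-CoA synthetase joins the shared subunit Suclg1 to the ADP-specific Sucla2 or the GTP-specific Suclg2. Sucla2 had 94.3, 83.7 and 99.9 CPM in JGT 500 libraries, against 85.0, 80.5 and 80.8 CPM in vehicle libraries. Suclg1 had 56.8, 60.2 and 54.8 CPM in JGT 500 libraries, against 53.2, 58.4 and 58.8 CPM in vehicle libraries. Suclg2 had 21.7, 22.4 and 20.6 CPM in JGT 500 libraries, against 22.0, 22.4 and 22.9 CPM in vehicle libraries. The groups overlapped for all 3 subunits, for Sucla2 through JGT 500 replicate 2 alone. Sucla2 was called at 0.17 ± 0.05 (SE, adjusted p = 0.0179), and Suclg1 (0.01) and Suclg2 (−0.06) were not. The Sucla2 call was lost without JGT 500 replicate 1 (adjusted p = 0.0688), JGT 500 replicate 3 (log2 difference 0.11, adjusted p = 0.128), vehicle replicate 2 (0.0715) or vehicle replicate 3 (0.0748).

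Of the last steps of the cycle, fumarase (Fh1) gave a log2 difference of −0.03 and cytosolic malate dehydrogenase (Mdh1) of 0.01, neither called. Mitochondrial malate dehydrogenase (Mdh2), the most abundant of the 37 per kilobase, stood at 285, 293 and 290 CPM in JGT 500 libraries, against 310, 305 and 305 CPM in vehicle libraries. The groups did not overlap, but the fall was 5.71% (log2 −0.08 ± 0.03, SE, adjusted p = 0.0408). The call was lost with library totals as the only scaling (0.114), with every gene that had a count tested (0.112) and when any 1 vehicle library was left out (0.0944, 0.0808 and 0.0624 without replicates 1, 2 and 3). It was also lost without JGT 500 replicate 1 (0.113) or replicate 3 (0.0667).

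The carnitine shuttle carried the largest change. Cpt1a, on chr19:3322334-3385733 of GRCm38, encodes the enzyme that conjugates long-chain acyl groups to carnitine at the outer membrane. It stood at 77.6, 72.4 and 72.5 CPM in JGT 500 libraries, against 44.2, 46.0 and 45.0 CPM in vehicle libraries. The gap between the groups was far wider than the spread inside either, and the difference was 0.72 ± 0.04 (SE, adjusted p = 5.54e-11). By group its level was 41.8 ± 1.3 CPM in non-treated myotubes, 45.0 ± 0.93 with vehicle, 45.6 ± 0.98 at 20 µg/mL, 51.1 ± 1.9 at 100 µg/mL and 74.2 ± 2.95 at 500 µg/mL (SD, n = 3 each). The muscle-type enzyme Cpt1b was barely expressed in these myotubes. It had 0.90, 1.17 and 1.06 CPM in JGT 500 libraries, against 0.85, 1.00 and 1.52 CPM in vehicle libraries, 25 counts or more in each library. The groups overlapped, and its difference of −0.10 ± 0.26 (SE) was not called. Per kilobase of exon, Cpt1a stood at 5.89 ± 0.12 CPM and Cpt1b at 0.33 ± 0.10 CPM in vehicle myotubes (SD, n = 3 each).

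The carnitine-acylcarnitine carrier Slc25a20, which exchanges acylcarnitine for carnitine across the inner membrane, had 20.0, 17.2 and 22.5 CPM in JGT 500 libraries, against 18.0, 16.3 and 16.4 CPM in vehicle libraries. Replicate 2 lay within the vehicle range and the other JGT 500 libraries above it. The difference was 0.23 ± 0.08 (SE, adjusted p = 0.0305), and it was 0.13 (adjusted p = 0.213) without JGT 500 replicate 3. The call was also lost without JGT 500 replicate 1 (0.0835), vehicle replicate 2 (0.108) or vehicle replicate 3 (0.115). Cpt2, which returns acyl groups to CoA in the matrix, gave 0.05 ± 0.06 (SE) and was not called.

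The acyl-CoA dehydrogenases open each round of the spiral and differ in the chain length they prefer. Very-long-chain Acadvl had 97.8, 86.9 and 104 CPM in JGT 500 libraries, against 85.9, 78.9 and 81.6 CPM in vehicle libraries. Long-chain Acadl had 162, 167 and 152 CPM in JGT 500 libraries, against 144, 144 and 146 CPM in vehicle libraries. For both genes the groups did not overlap, although Acadvl in JGT 500 replicate 2 lay just above vehicle replicate 1. Medium-chain Acadm had 76.5, 64.2 and 74.9 CPM in JGT 500 libraries, against 56.7, 54.6 and 55.7 CPM in vehicle libraries. Short-chain Acads had 45.1, 45.2 and 45.9 CPM in JGT 500 libraries, against 37.2, 38.8 and 40.3 CPM in vehicle libraries. These groups did not overlap either, and Acadm was again lowest in JGT 500 replicate 2. The log2 differences were 0.23 ± 0.06 for Acadvl (SE, adjusted p = 0.00337), 0.15 ± 0.04 for Acadl (0.00443), 0.37 ± 0.06 for Acadm (0.000101) and 0.23 ± 0.05 for Acads (0.00198). All 4 stayed called when any 1 library of JGT 500 or vehicle was left out, and Acadl alone lost its call against the non-treated libraries.

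**Figure D2:**
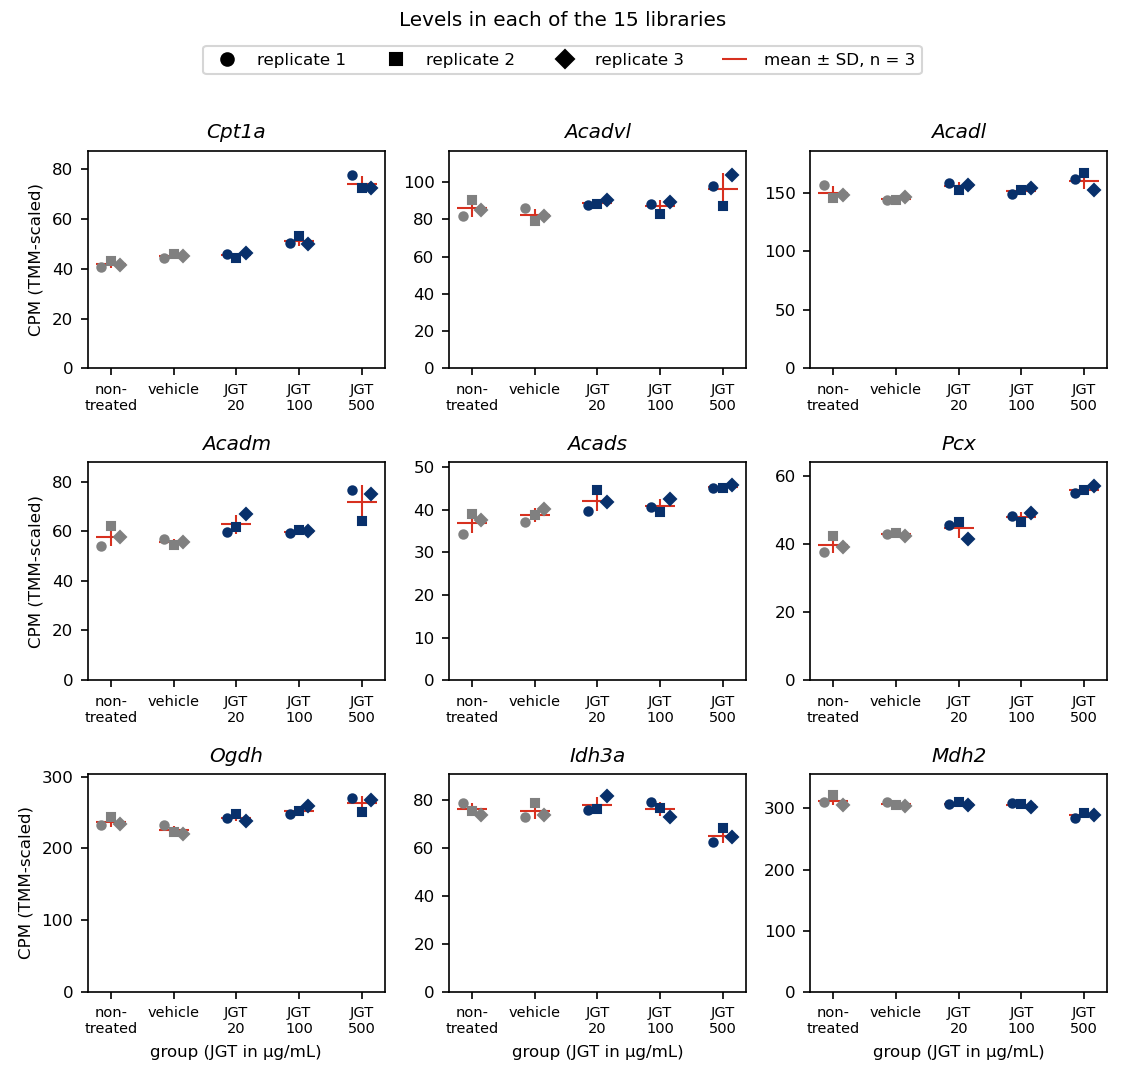
CPM (y axis, linear and starting at 0) of 9 genes in each of the 15 libraries by group (x axis), with the replicates as separate symbols and the mean ± SD of 3 libraries in red. Cpt1a, Pcx and Acads have their 3 JGT 500 libraries close together above all vehicle libraries, and Idh3a and Mdh2 have theirs below.

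The promoters of Cpt1a and of the 4 acyl-CoA dehydrogenases, the genes of fatty acid oxidation that kept their calls in each omission of 1 library at 500 µg/mL, are printed to show the sequence before their RefSeq starts. Each window is 250 bases in GRCm38.p6, and that of Cpt1a lies inside the longer gene span that GENCODE gives. The sequences are read 5′ to 3′ on the gene's own strand. Capitals mark AAGGTCA or its reverse TGACCTT, the motif of estrogen-related receptors, and GCGTG or its reverse CACGC, the core of the dioxin response element bound by the aryl hydrocarbon receptor.
Cpt1a (chr19:3323051-3323300, plus strand): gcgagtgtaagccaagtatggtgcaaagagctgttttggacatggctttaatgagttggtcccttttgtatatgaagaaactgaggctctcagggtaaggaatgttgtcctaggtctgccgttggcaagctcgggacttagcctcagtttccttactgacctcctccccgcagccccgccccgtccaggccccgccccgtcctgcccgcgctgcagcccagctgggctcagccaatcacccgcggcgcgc
Acadvl (chr11:70015429-70015678, minus strand): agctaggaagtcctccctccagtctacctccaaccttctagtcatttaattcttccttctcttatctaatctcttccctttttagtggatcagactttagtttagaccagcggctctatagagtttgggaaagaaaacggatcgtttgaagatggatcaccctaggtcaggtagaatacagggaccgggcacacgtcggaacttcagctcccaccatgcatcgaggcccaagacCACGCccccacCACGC
Acadl (chr1:66863310-66863559, minus strand): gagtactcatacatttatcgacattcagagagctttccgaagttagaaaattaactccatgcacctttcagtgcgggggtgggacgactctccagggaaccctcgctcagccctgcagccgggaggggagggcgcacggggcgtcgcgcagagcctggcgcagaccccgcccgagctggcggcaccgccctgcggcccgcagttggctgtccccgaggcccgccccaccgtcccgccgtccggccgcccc
Acadm (chr3:153944644-153944893, minus strand): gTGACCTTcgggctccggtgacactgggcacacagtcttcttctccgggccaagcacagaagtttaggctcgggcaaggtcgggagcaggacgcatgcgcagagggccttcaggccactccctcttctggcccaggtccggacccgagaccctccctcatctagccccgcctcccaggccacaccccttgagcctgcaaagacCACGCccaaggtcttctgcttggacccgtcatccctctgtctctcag
Acads (chr5:115119347-115119596, minus strand): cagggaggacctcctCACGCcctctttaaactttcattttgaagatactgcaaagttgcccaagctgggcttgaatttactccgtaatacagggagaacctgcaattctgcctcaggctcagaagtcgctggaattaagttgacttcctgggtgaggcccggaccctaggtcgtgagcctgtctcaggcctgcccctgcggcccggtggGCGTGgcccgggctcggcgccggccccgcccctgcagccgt

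The estrogen-related receptor motif occurred in Acadm, at the far end of its window and on the opposite strand. It occurred in no other of the 33 members with a RefSeq promoter, against 4.70% of all 27025 genes with a promoter of that length. The GCGTG core occurred in 16 of 33 (48.5%), against 30.9% of the 27025 genes, with 2 copies in Acadvl, 2 in Acads, 1 in Acadm and none in Acadl or Cpt1a. The NRF1 motif and the antioxidant response element core TGACNNNGC (reverse GCNNNGTCA), searched on both strands, were each found in 3 of 33, against 4.23% and 11.5% of the 27025 genes. Those genes were not limited to the ones tested here, and their base composition was not matched to the members. No 2 matches to these motifs overlapped in a member's promoter. A match describes letters in a window and shows no binding.

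Of the 5 genes of the hydratase, hydroxyacyl dehydrogenase and thiolase steps, 1 rose (20%) and none fell at 500 µg/mL. Among all tested genes 16.5% were called higher and 16.8% lower. Without JGT 500 replicate 2, Hadh and Hadhb were also called lower. Short-chain enoyl-CoA hydratase Echs1 rose by 0.16 ± 0.04 (SE, adjusted p = 0.00886), with 41.6, 42.3 and 44.0 CPM in JGT 500 libraries and 37.2, 39.5 and 38.1 CPM in vehicle libraries. Its call was lost without vehicle replicate 1 (adjusted p = 0.0570). Hadha and Hadhb, the subunits of the trifunctional protein that handles long chains, lie head to head on chromosome 5 with 85 bases between them. Hadha had 198, 198 and 188 CPM in JGT 500 libraries, against 201, 200 and 203 CPM in vehicle libraries. Hadhb had 72.7, 85.0 and 76.3 CPM in JGT 500 libraries, against 79.9, 85.2 and 82.2 CPM in vehicle libraries. All Hadha values at 500 µg/mL lay below vehicle by a small margin and those of Hadhb overlapped, and neither difference was called (−0.05 ± 0.03 and −0.08 ± 0.05, SE). Hydroxyacyl-CoA dehydrogenase Hadh (−0.12), the thiolase Acaa2 (0.08), the isomerase Eci1 (0.05) and the dienoyl-CoA reductase Decr1 (0.08), which serve unsaturated chains or the later steps of each round, were not called.

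Electrons from the acyl-CoA dehydrogenases pass to the electron transfer flavoprotein, made of Etfa and Etfb, and from it through Etfdh to ubiquinone. Etfa had 50.5, 55.3 and 52.7 CPM in JGT 500 libraries, against 51.6, 54.7 and 57.5 CPM in vehicle libraries. Etfb had 24.2, 26.7 and 25.3 CPM in JGT 500 libraries, against 26.6, 29.2 and 29.1 CPM in vehicle libraries. Both overlapped between groups, Etfb only because JGT 500 replicate 2 lay just above vehicle replicate 1. Etfb was called lower at −0.15 ± 0.06 (SE, adjusted p = 0.0447), and Etfa (−0.05 ± 0.05) was not called. The Etfb call was lost with library totals as the only scaling (0.0787), in DESeq2 (0.0738) and limma-voom (0.0515), without JGT 500 replicate 1 (0.162) or replicate 3 (0.0900), and without vehicle replicate 2 (0.148) or replicate 3 (0.132). Etfdh averaged 65.9 ± 2.3 CPM in JGT 500 libraries and 59.6 ± 1.6 CPM in vehicle libraries (SD, n = 3 each), with no overlap. It rose by 0.14 ± 0.04 (SE, adjusted p = 0.0148), and the call was lost without JGT 500 replicate 3 (0.0718) or vehicle replicate 3 (0.0933).

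At the lower doses few of the genes were called. At 20 µg/mL none of the 37 was called against vehicle, where 0.325% of all genes were (0.173% higher and 0.152% lower). An unadjusted p below 0.05 was found for 6 of the 37, Ogdh, Mdh1, Cpt1b, Acadl, Acadm and Acads. The share of all genes below that unadjusted threshold was not counted, so this count and the like ones below cannot be read as an excess. DESeq2 and limma-voom also called none of the 37 in this comparison. At 100 µg/mL, 2 rose, where 2.09% of all genes were called higher, and none fell, where 2.22% were called lower, 4.31% in either direction. These were Cpt1a at 0.18 ± 0.04 (SE, adjusted p = 0.0149) and Ogdh at 0.17 ± 0.04 (0.0100). Cpt1a had 50.2, 53.3 and 49.9 CPM in JGT 100 libraries, and Ogdh 247, 252 and 259 CPM. All of these lay above every vehicle library given above. The Cpt1a call was lost without JGT 100 replicate 2 (0.109), vehicle replicate 1 (0.0728) or vehicle replicate 3 (0.0691). That of Ogdh was lost without JGT 100 replicate 3 (0.0637), vehicle replicate 2 (0.0533) or vehicle replicate 3 (0.0744), and against the non-treated libraries (0.129). In vehicle against non-treated myotubes none of the 37 was called by edgeR, DESeq2 or limma-voom. Of all genes, 1.31% were called by edgeR (0.553% higher and 0.754% lower). For 7 of the 37 the unadjusted p was below 0.05. Vehicle lay below non-treated for Cpt1b (−0.63), Idh2 (−0.15), Sucla2 (−0.11), Dld (−0.11) and Decr1 (−0.11), and above it for Pcx (0.11) and Cpt1a (0.11). The lowest of these 7 p-values was that of Idh2. Idh2 averaged 69.7 ± 1.9 CPM with vehicle and 77.1 ± 4.8 CPM in non-treated myotubes (SD, n = 3 each).

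Within the JGT libraries, which share 1 scheme of sample codes, JGT 500 against JGT 20 called 6 genes higher, where 11.1% of all genes were, and 3 lower, where 12.2% were, 23.3% in either direction. This comparison shares its JGT 500 libraries with that against vehicle. Cpt1a was again the largest rise, at 0.70 ± 0.04 (SE, adjusted p = 9.91e-11), with 45.8, 44.5 and 46.4 CPM in JGT 20 libraries. Pcx (0.33), Slc25a20 (0.23), Acadm (0.19), Etfdh (0.13) and Ogdh (0.12) also rose. Idh3a (−0.26 ± 0.05, SE, adjusted p = 0.000288) and Mdh2 (−0.09) fell. The largest fall was that of Cpt1b, at −0.78 ± 0.24 (SE, adjusted p = 0.0237), with 0.90, 1.17 and 1.06 CPM in JGT 500 libraries and 1.88, 2.38 and 1.12 CPM in JGT 20 libraries. The groups overlapped through JGT 20 replicate 3, and at these levels the values rest on few counts. Acadvl (0.11), Acads (0.11) and Acadl (0.04) were not called in this comparison. In JGT 100 against JGT 20 none was called by edgeR, DESeq2 or limma-voom, where 0.429% of all genes were (0.297% higher and 0.131% lower). An unadjusted p below 0.05, again without the share of all genes, was found for 3, Pcx, Fh1 and Cpt1a.

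Cpt1a, Pcx and Idh3a kept their calls in JGT 500 against JGT 20 under all 14 alternatives tried. The other 6 each lost theirs without JGT 500 replicate 1, JGT 500 replicate 3 or JGT 20 replicate 1. Acadm, Cpt1b and Mdh2 also lost theirs without JGT 20 replicate 2, and Etfdh, Mdh2, Ogdh and Slc25a20 without JGT 20 replicate 3. The highest adjusted p over the alternatives was 0.137 for Acadm, 0.148 for Cpt1b, 0.138 for Etfdh, 0.166 for Mdh2, 0.126 for Ogdh and 0.267 for Slc25a20. Without JGT 500 replicate 2 the counts were 9 higher and 9 lower. The higher count was 2 without JGT 500 replicate 1, JGT 500 replicate 3 or JGT 20 replicate 1, and 3 without JGT 20 replicate 3. The lower count was 1 without JGT 500 replicate 1, JGT 500 replicate 3 or JGT 20 replicate 2. Calls among all tested genes in this comparison ranged from 2532 to 5165 over omissions of 1 library, against 3369 with all libraries. Slc25a20 gave a log2 difference of 0.13 without JGT 500 replicate 3.

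The 3 libraries at 500 µg/mL parted for some genes. Of the 12 higher genes, 8 had their lowest JGT 500 value in replicate 2, as did 63.0% of all genes called higher, and all 3 lower genes had their highest value there, as did 57.7% of all genes called lower. Against the mean of replicates 1 and 3, replicate 2 was lower by log2 differences of −0.30 for Slc25a20, −0.24 for Acadm, −0.23 for Dld and −0.21 for Pdhb, Sucla2 and Acadvl. It was higher by 0.28 for Hadh, 0.26 for Cpt1b, 0.22 for Idh3g and 0.21 for Cpt2. Cpt1a, Pcx and Acads differed little between the 3 libraries. The share of counts from mitochondrially encoded genes was 4.27%, 4.94% and 3.47% in JGT 500 replicates 1, 2 and 3, against 4.94%, 4.94% and 4.74% in vehicle libraries, and its part in these differences was not tested.

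**Figure D3:**
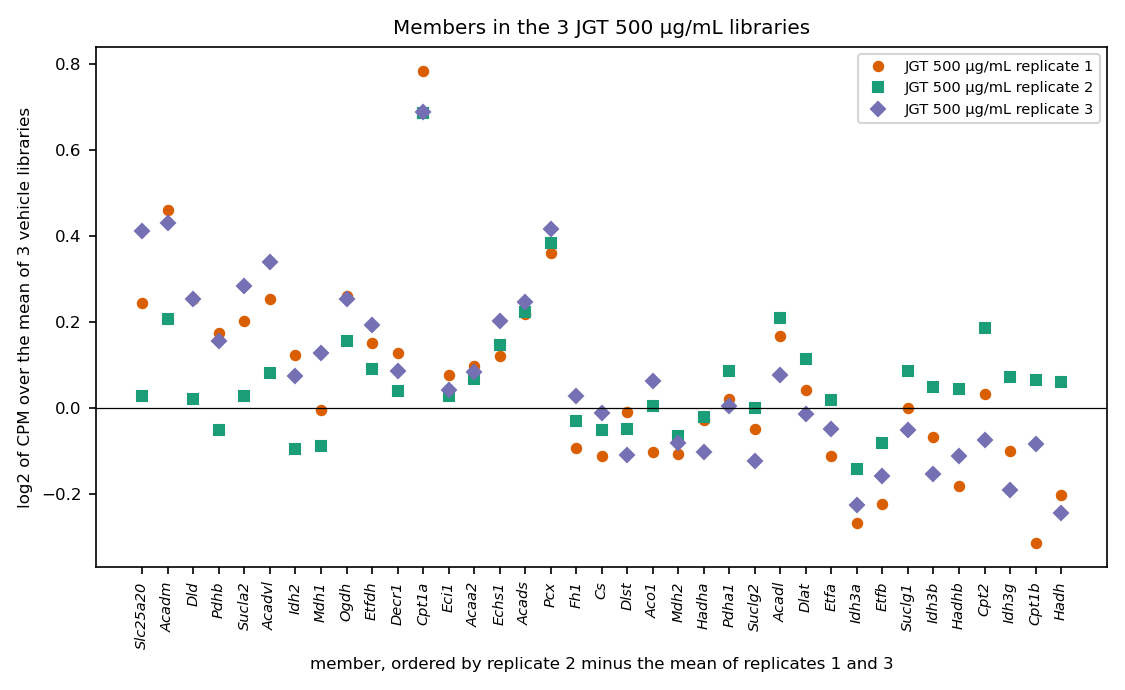
Log2 of CPM in each JGT 500 µg/mL library over the mean of the 3 vehicle libraries (y axis) for the 37 genes (x axis), ordered by replicate 2 minus the mean of replicates 1 and 3. The replicates part at both ends, from Slc25a20 (−0.30) to Hadh (0.28), and lie close together for Cpt1a, Acads and Pcx.

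Levels differed far more between genes than between conditions. Per kilobase of exon in vehicle myotubes, Mdh2 (86.1 ± 0.82 CPM), Pdha1 (73.4 ± 0.99), Acadl (72.1 ± 0.79), Cs (62.7 ± 0.51) and Mdh1 (49.2 ± 2.5) were highest (SD, n = 3 each). Pdha1 and Acadl, next to each other in this order, differed by less than the sum of their SDs. Slc25a20 (3.49 ± 0.20) and Cpt1b (0.33 ± 0.10) were lowest. With the longest transcript as the length, the order above the bottom shifted, for example for Dlst, which stood at 25.9 CPM per kilobase of exon and at 76.8 CPM per kilobase of longest transcript. Together the 37 genes took 0.367% ± 0.0038 of all counts in JGT 500 libraries and 0.351% ± 0.00086 in vehicle libraries, and 0.358% ± 0.0060 in non-treated libraries (SD, n = 3 each). The 18 genes of fatty acid oxidation took 0.113% ± 0.0002 in JGT 500 libraries, against 0.103% ± 0.0012 in vehicle libraries and 0.104% ± 0.0019 in non-treated libraries. The 19 genes of the cycle and pyruvate entry took 0.255% ± 0.0037 in JGT 500 libraries, against 0.248% ± 0.00089 in vehicle libraries. Their share was 0.254% ± 0.0041 in non-treated libraries and 0.256% ± 0.0035 in JGT 20 libraries, so that vehicle was the lowest group.

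**Figure D4:**
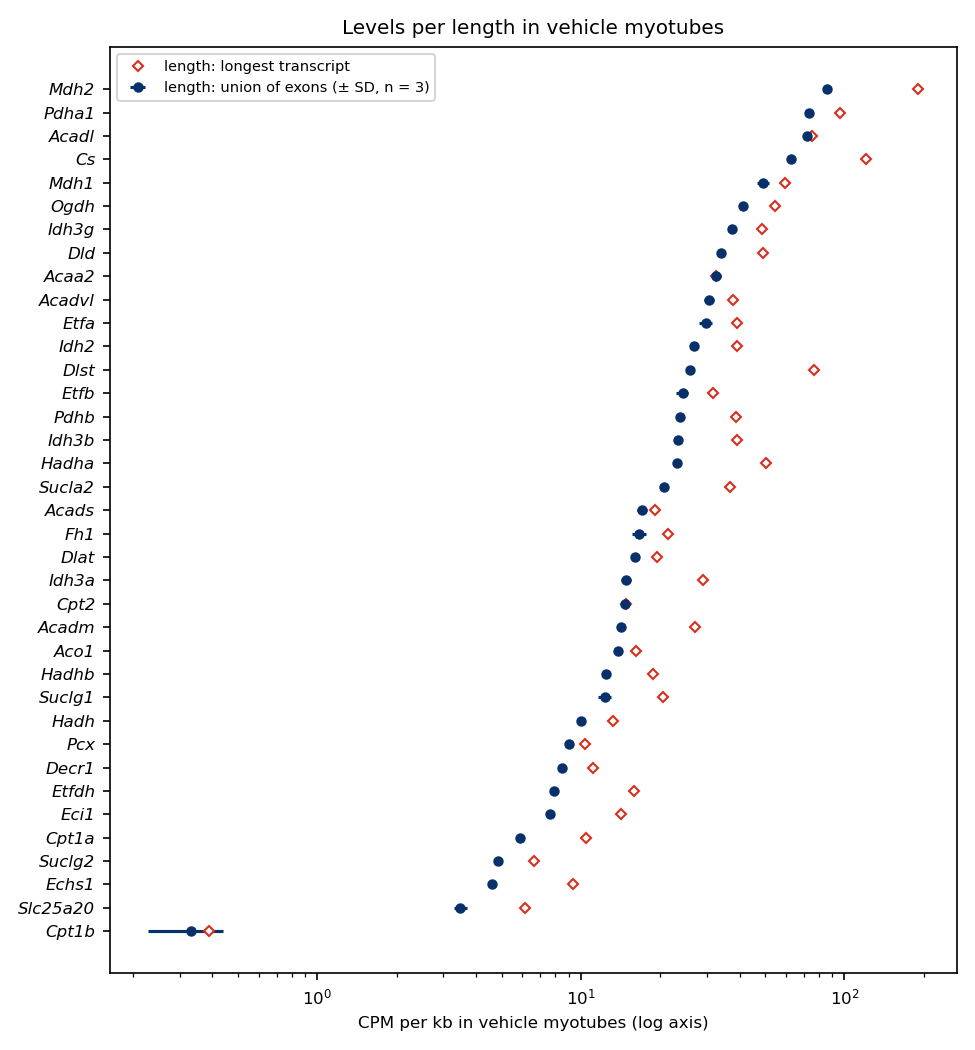
CPM per kilobase in vehicle myotubes (x axis, log scale) for the 37 genes (y axis), by union of exons (filled, mean ± SD of 3 libraries) and by longest transcript (open). Mdh2 is highest and Cpt1b lowest by either length, and Dlst shifts most between the lengths.

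Genes around these pathways gave a mixed picture at 500 µg/mL. Of 32 accessory genes of pyruvate use and the cycle, 7 rose (21.9%) and 3 fell (9.38%), against 16.5% and 16.8% of all tested genes. Cytosolic malic enzyme Me1 rose by 0.69, with 109, 96.2 and 110.0 CPM in JGT 500 libraries, against 66.7, 66.6 and 61.9 CPM in vehicle libraries, with no overlap. The cytosolic NADP-dependent isocitrate dehydrogenase Idh1 rose by 0.38 and the pyruvate dehydrogenase kinase Pdk1 by 0.35, and the dicarboxylate carrier Slc25a10 fell by 0.39. Pdk4 (0.05), the complex's binding protein Pdhx (0.13), and the pyruvate carrier subunits Mpc1 (−0.06) and Mpc2 (0.09) were not called. Without JGT 500 replicate 2 the counts of this list were 9 higher and 5 lower. Me1 was already higher at 20 µg/mL (0.23) and 100 µg/mL (0.31).

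Of 20 tested genes of fatty acid uptake and activation, 3 rose (15%) and 2 fell (10%) at 500 µg/mL, against 16.5% and 16.8% of all tested genes. Acyl-CoA synthetases Acsl6 (0.41) and Acsl3 (0.11) and the thioesterase Acot1 (0.46) rose, and acetyl-CoA carboxylase Acaca (−0.12), which makes malonyl-CoA, fell. The fatty acid binding protein Fabp5 fell by 1.09, with 2.44, 3.49 and 2.51 CPM in JGT 500 libraries, against 5.98, 5.21 and 6.91 CPM in vehicle libraries. The groups were well apart. Fabp5 and Acot1 have close copies in the genome, with which they may share reads. The synthetase Acsl1 (−0.10) and the fatty acid transporter Cd36 (−0.12) were not called. The higher count was 4 without JGT 500 replicate 2 and 1 without replicate 3.

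Other oxidation enzymes, peroxisomal or acting on branched-chain and short acyl groups, had 14 higher and 2 lower of 30 tested. These shares were 46.7% and 6.67%, against 16.5% and 16.8% of all tested genes. The median log2 difference was 0.17, against 0.01 over all tested genes. Peroxisomal acyl-CoA oxidase Acox3 (0.37), isovaleryl-CoA dehydrogenase Ivd (0.31) and methylmalonate semialdehyde dehydrogenase Aldh6a1 (0.34) rose, and the acetoacetyl-CoA thiolase Acat1 (−0.24) and the propionyl-CoA carboxylase subunit Pccb (−0.16) fell. Acox3 had 61.5, 64.6 and 60.4 CPM in JGT 500 libraries, against 48.9, 48.6 and 47.3 CPM in vehicle libraries. The groups did not overlap. The higher count was 9 without JGT 500 replicate 1, and the counts were 16 higher and 5 lower without replicate 2.

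Of 20 regulators of these pathways, 4 rose (20%) and 3 fell (15%), against 16.5% and 16.8% of all tested genes. Without JGT 500 replicate 2 these counts were 5 and 3. The lipid droplet protein Plin2 (0.46), the AMP-activated kinase subunit Prkaa1 (0.28), Pparg (0.27) and Ppard (0.16), both lipid-sensing nuclear receptors, rose. The uncoupling protein Ucp2 (−0.36), the coactivator Ppargc1b (−0.43) and the kinase subunit Prkaa2 (−0.19) fell. Ppara had 0.40, 0.29 and 0.46 CPM in JGT 500 libraries, against 0.20, 0.27 and 0.17 CPM in vehicle libraries. Ppargc1a had 0.93, 0.88 and 0.78 CPM in JGT 500 libraries, against 1.18, 1.23 and 1.28 CPM in vehicle libraries. The groups did not overlap for either gene, but at these levels the differences of 0.83 ± 0.41 and −0.51 ± 0.21 (SE) were not called. Esrra, an estrogen-related receptor, had 29.8, 30.1 and 30.8 CPM in JGT 500 libraries, against 31.6, 28.2 and 32.5 CPM in vehicle libraries, and was not called (−0.03).

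By gene span, introns included, 9 of the 37 genes overlap a protein-coding gene on the opposite strand in the GENCODE annotation of GRCm38. On their own strand 0 overlap one. Only annotated genes whose symbol is also in the table of counts were searched, so other overlaps may have been missed. The 9 are Pdha1, Pcx, Idh3b, Sucla2, Fh1, Mdh1, Acadvl, Echs1 and Etfdh. The libraries were directional, but no source used here states the strand setting of the counting. Where exons overlap, reads of these genes and of their partners may therefore not be separated in the counts. Whether exons overlap was not checked. For Pcx, Sucla2, Acadvl, Echs1 and Etfdh, all called higher, a part of the partner's RNA in the counts was not tested.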

How the data were processed

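RNA was made into directional mRNA libraries and sequenced in paired 100 bp reads, per the labels' protocols. The submitters' processing notes name FastQC 0.11.9, Trim Galore 0.6.5, STAR 2.7.3a, RSEM 1.3.3 and the mouse build GRCm38 (mm10). The purpose of each tool, the annotation and the strand setting were not given in the sources used here. For 15 libraries, the authors deposited expected counts per gene symbol, not normalized. Of these values 9.34% were not whole, within 0.005, and all were rounded to whole counts.

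All 15 libraries entered 1 edgeR 4.0.16 quasi-likelihood fit in R 4.3.3, after filterByExpr (14461 genes) and TMM scaling (factors 0.988 to 1.02), with a mean per group and no covariate. The biological coefficient of variation was 5.31%, with 10 residual degrees of freedom. Tests were two-sided and adjusted by Benjamini-Hochberg over all tested genes. Tested on simulated data for JGT 500 against vehicle (14374 genes), the fit recovered 38.7% of genes changed by 0.25 on the log2 scale, 74.6% at 0.5 and 83.1% at 1, and 6.34% of its calls were false. Only 62, 67 and 71 genes were changed at these sizes, whereas 33.3% of all tested genes were called in the data. No library was made to stand apart as JGT 500 replicate 2 did. These shares may therefore not hold for the real comparison.

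The 37 genes and the lists of accessory, uptake, other oxidation, regulator and marker genes were chosen with earlier results of these data known. Library values are given for the largest rises and falls, for partner subunits and isoforms, and, added after their values were seen, for other called genes; of the other lists, genes with the smallest p and 11 fixed ones are named. Exon lengths and positions come from the GENCODE annotation of GRCm38 and promoters from RefSeq, which held 33 of the 37 genes. Alternatives used other scaling, other filters, DESeq2 1.42.0, limma-voom (limma 3.58.1), a fit of only the groups compared, the replicate number as a block, the non-treated libraries as reference, and omission of each library.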

Additional observations from a re-analysis of the deposited data

How the results depend on the processing

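No gene among the 37 changed the sign of a called difference under any alternative run. With only the compared groups in the fit, the members called higher numbered 1 in JGT 20 against vehicle, 1 in JGT 100 against JGT 20 and 2 in JGT 500 against JGT 20. Those called lower numbered 1 in each of JGT 500 against vehicle, vehicle against non-treated and JGT 500 against JGT 20. In that fit the calls among all genes were 330 for JGT 20 against vehicle (47 in the fit of all groups), 1369 for JGT 100 against vehicle (623), 1031 for vehicle against non-treated (189), 191 for JGT 100 against JGT 20 (62) and 1982 for JGT 500 against JGT 20 (3369). With the non-treated libraries as reference, 7 members were higher at 500 µg/mL, and 450 and 1320 of all genes were called at 20 and 100 µg/mL. With library totals as the only scaling, 1 member was lower at 500 µg/mL against vehicle. With a CPM of at least 1 in 3 libraries as the filter, 5 members were lower in JGT 500 against JGT 20. Testing every gene with a count gave 73 calls for JGT 20 against vehicle, and DESeq2 gave 95 there and 319 for vehicle against non-treated. Without mitochondrially encoded genes in the total, the members' share was 0.381%, 0.377% and 0.384% at 20, 100 and 500 µg/mL, 0.369% with vehicle and 0.376% in non-treated libraries. The cause of these shifts was not tested. For JGT 500 against vehicle, calls among all genes under these alternatives are not given here. Nor are they for JGT 500 against JGT 20 under the CPM filter. The members' counts there cannot be read apart from a shift over all genes.

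Omitting 1 library at a time, members called higher ranged from 8 to 13 in JGT 500 against vehicle, from 0 to 2 in JGT 100 against vehicle and from 2 to 9 in JGT 500 against JGT 20. Members called lower ranged from 1 to 7 in JGT 500 against vehicle and from 1 to 9 in JGT 500 against JGT 20. In the other comparisons they stayed at 0 in both directions. Calls among all genes ranged from 3704 to 6323 in JGT 500 against vehicle, 315 to 409 in JGT 100 against vehicle, 18 to 36 in JGT 20 against vehicle, 36 to 88 in vehicle against non-treated, 19 to 41 in JGT 100 against JGT 20 and 2532 to 5165 in JGT 500 against JGT 20.

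Same-numbered libraries did not deviate together: their correlations over genes were 0.09, 0.12 and −0.03 in JGT 500 against vehicle and −0.18, −0.21 and 0.04 in JGT 500 against JGT 20. With the replicate number as a block, 12 members were higher and 3 lower in JGT 500 against vehicle, and 5 were higher and 3 lower in JGT 500 against JGT 20, where Slc25a20 was lost. In simulated data for JGT 500 against vehicle, with far fewer changed genes than were called in the data, 38.7% of changes of 0.25 on the log2 scale were recovered. Cpt1b, at about 1 CPM, was measured least precisely.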
